A study of Mus musculus with 10 samples.

Results

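*Cxcl2*, *Cxcl3*, *Cxcl10*, *Ccl3*, *Ccl4*, *Ccl6* and *Ccl9* are 7 chemokine genes that were chosen by symbol, and all 7 were found among the 13091 genes of the authors' 4 tables of comparisons. The tables come from RNA sequencing of mouse neutrophils grown in culture from bone marrow progenitors, with or without the intermediate filament protein vimentin. Group values were available as comparisons between groups, so no value per library can be shown and the depth of each library is unknown. The precision of every value is that of the authors' standard errors.

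All cells were of the strain labelled 129-SVEV and carried HoxB8 fused to the estrogen receptor, a transgene that keeps progenitors dividing while estrogen is present. They matured into neutrophils once estrogen was withdrawn, with IL-3 and GCSF in the medium. The study's progenitor lines were each grown from 1 sorted cell. The labels give 2 biological replicates of *Vim*+/+ and 3 of *Vim*-/- neutrophils, both unstimulated and after 1 hour with 25 ng/mL of LPS, the bacterial lipopolysaccharide that activates TLR4. This gave 10 libraries in 4 groups, and whether each replicate is a line of its own is not stated in the sources used here. The labels call the *Vim*-/- cells a knockdown, while the study took them from knockout mice. *Vim* itself was lower in *Vim*-/- neutrophils by a log2 fold change of -13.56 (SE 0.335) unstimulated and -12.44 (SE 0.243) after LPS. The 15 neutrophil marker genes examined were all in the tables, with mean normalised counts from 11373 to 1290830. The LPS and genotype comparisons share libraries, so their values are set side by side and not counted as separate evidence.

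Chemokines are small secreted proteins that attract leukocytes through G protein-coupled receptors. Their names follow the spacing of the first cysteines: CXC ligands such as Cxcl2 and Cxcl3 act on Cxcr2 and draw neutrophils, and Cxcl10 acts on Cxcr3 of T cells and NK cells. The CC ligands Ccl3 and Ccl4 attract monocytes and other leukocytes, and Ccl3 acts on Ccr1 among other receptors. Ccl6 and Ccl9 are CC ligands of rodents that act on Ccr1. In macrophages and neutrophils, LPS signals through TLR4 and its adaptors to the NF-κB transcription factors, and several chemokine genes are among the first to be transcribed.

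Sequence upstream of the transcription start is shown for the genes with the largest LPS responses and for *Ccl9*, which had the largest genotype difference of the 7 by Wald statistic, all in the direction of transcription. The sequences are RefSeq's on GRCm38.p6, the mm10 build, and cover the 250 bases before the start. Capitals mark matches on either strand to the κB consensus, the 10-base site bound by NF-κB, or to GAAANNGAAA, a repeat found in elements that respond to interferon. The 2 motifs were chosen after the expression values had been seen.
Cxcl2 (chr5:90903649-90903898, plus strand): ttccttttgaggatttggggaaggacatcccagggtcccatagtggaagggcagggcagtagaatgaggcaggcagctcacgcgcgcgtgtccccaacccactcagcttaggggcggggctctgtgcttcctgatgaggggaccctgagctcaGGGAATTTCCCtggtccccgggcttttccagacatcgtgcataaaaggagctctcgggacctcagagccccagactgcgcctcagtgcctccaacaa
Cxcl3 (chr5:90785851-90786100, plus strand): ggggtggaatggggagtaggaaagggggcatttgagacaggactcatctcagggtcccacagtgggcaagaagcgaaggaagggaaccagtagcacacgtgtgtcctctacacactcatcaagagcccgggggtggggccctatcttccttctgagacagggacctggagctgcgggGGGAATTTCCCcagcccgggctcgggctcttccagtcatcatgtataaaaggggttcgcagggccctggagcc
Cxcl10 (chr5:92348890-92349139, minus strand): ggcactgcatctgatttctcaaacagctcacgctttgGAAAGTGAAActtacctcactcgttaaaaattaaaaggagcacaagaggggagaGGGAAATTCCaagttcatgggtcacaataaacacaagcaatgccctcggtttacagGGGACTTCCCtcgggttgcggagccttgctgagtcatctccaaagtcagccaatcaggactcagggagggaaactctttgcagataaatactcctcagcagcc
Ccl3 (chr11:83649379-83649628, minus strand): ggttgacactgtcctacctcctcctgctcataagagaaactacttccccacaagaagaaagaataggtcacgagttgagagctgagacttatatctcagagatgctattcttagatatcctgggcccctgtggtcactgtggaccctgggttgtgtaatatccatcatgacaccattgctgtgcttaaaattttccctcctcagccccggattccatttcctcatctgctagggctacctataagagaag
Ccl9 (chr11:83578637-83578886, minus strand): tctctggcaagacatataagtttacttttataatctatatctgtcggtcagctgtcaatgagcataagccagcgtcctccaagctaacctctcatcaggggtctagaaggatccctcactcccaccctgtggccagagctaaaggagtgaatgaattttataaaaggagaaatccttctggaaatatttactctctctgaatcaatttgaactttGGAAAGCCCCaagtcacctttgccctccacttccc

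*Cxcl2* and *Cxcl3* held the same κB letters, GGGAATTTCC, ending 88 and 64 bases before the start, and the run reads as a match on the other strand too when shifted by 1 base. *Cxcl10* held 2 matches, GGGAAATTCC and GGGACTTCCC, and also GAAAGTGAAA, which ends 204 bases before the start. *Ccl9* held 1 match on the opposite strand, GGGGCTTTCC, which ends 26 bases before the start. No match was found in the windows of *Ccl3* and *Ccl6*, and *Ccl4* was not searched. Among 32851 mouse promoter windows of the same length, 3.90% held the κB consensus and 2.98% held GAAANNGAAA. The letters therefore did not divide the genes by their response: *Ccl3* rose with LPS and had none, whereas *Ccl9* had 1 and its level did not pass the test with LPS. A match of letters does not show that a factor binds there.

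4 sets of values describe each gene: the LPS response in each genotype and the genotype difference in each condition. A gene was called at the authors' adjusted p under 0.05 (DESeq2's Wald test, Benjamini-Hochberg) with an absolute log2 fold change over 1.

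After 1 hour of LPS, *Cxcl2*, *Cxcl3*, *Cxcl10* and *Ccl3* rose in neutrophils of both genotypes, and *Ccl4* passed the test in *Vim*-/- neutrophils. *Ccl6* and *Ccl9* did not pass in either genotype, so the name LPS-induced holds in these cells for 4 of the 7 genes in both genotypes. In *Vim*+/+ neutrophils 4 of the 7 were called as higher, where 1.08% of all 13091 genes were. In *Vim*-/- neutrophils 5 of the 7 were called as higher, where 0.917% of the 12329 genes with an adjusted p were. None of the 7 was called as lower with LPS. The median log2 fold change of the 7 was 2.48 in *Vim*+/+ and 3.29 in *Vim*-/- neutrophils, against 0.01 and -0.02 over all genes. The genes were picked as chemokines with results of these data known, so these medians describe them and are no test.

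*Cxcl2*, on chromosome 5 from 90903899 to 90905938, encodes a ligand of Cxcr2 that recruits neutrophils. It rose 44.1-fold in *Vim*+/+ neutrophils (95% interval 30.04 to 64.7) and 142-fold in *Vim*-/- neutrophils (103 to 198). By Wald statistic it ranked 4th of 13091 genes in both genotypes, with DESeq2 adjusted p = 5.38e-80 and 4.51e-190. The intervals of the 2 genotypes do not overlap.

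*Cxcl3*, 117.8 kb upstream of *Cxcl2* from 90786101 to 90788093, encodes another ligand of Cxcr2. Its LPS response was 92.4-fold in *Vim*+/+ neutrophils (17.0 to 503) and 25.7-fold in *Vim*-/- neutrophils (10.6 to 62.2), with DESeq2 adjusted p = 2.27e-05 and 1.10e-10. The order of the genotypes was the reverse of that of *Cxcl2*, but the intervals of *Cxcl3* overlap. Of the 50-base stretches of the *Cxcl3* transcript, 6.31% also occur in *Cxcl2* and in no other gene. The study's reads were longer than these stretches before trimming, and whether any read could be given to either gene was not tested. For *Ccl9* 1.995% of the stretches recur in other transcripts, and for the other 4 members none do.

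*Cxcl10*, on chromosome 5 from 92346638 to 92348889, encodes a ligand of Cxcr3 that is widely known as an interferon-inducible gene. Its log2 fold change was 9.20 (SE 2.10) in *Vim*+/+ and 7.85 (SE 1.62) in *Vim*-/- neutrophils, with DESeq2 adjusted p = 0.00112 and 0.000129. On the linear scale the intervals ran from 34.1-fold to 10184-fold and from 25.4-fold to 2096-fold. The size of the rise was thus known only to within about 2 orders of magnitude.

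*Ccl3*, on chromosome 11 from 83647843 to 83649378, encodes a ligand of Ccr1 (macrophage inflammatory protein 1α). It rose 5.56-fold in *Vim*+/+ neutrophils (4.49 to 6.89) and 9.81-fold in *Vim*-/- neutrophils (8.19 to 11.7), with DESeq2 adjusted p = 3.11e-52 and 1.48e-132. These intervals do not overlap either. Its fold change was far below that of *Cxcl10*, yet its Wald statistic ranked 10th and 6th of all genes, because its standard errors were small (0.158 and 0.133).

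*Ccl4* encodes macrophage inflammatory protein 1β, and its start lies 13.2 kb from that of *Ccl3* on the opposite strand. Its log2 fold change with LPS was 0.69 (SE 0.340) in *Vim*+/+ neutrophils, which did not pass (DESeq2 adjusted p = 0.395), and 1.05 (SE 0.285) in *Vim*-/- neutrophils, which did (0.0138, but 0.147 with the Benjamini-Yekutieli adjustment). The 2 values differed by 0.36, with a 95% interval from -0.51 to 1.23, so a difference in response was not detectable and one of up to 1.23 log2 units lies within the interval. RefSeq draws a *Ccl4* model, from 83648624 to 83664683, that overlaps *Ccl3*, whereas GENCODE starts the gene at 83662584. Which annotation was counted and whether strand was used is not given in the sources used here.

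*Ccl6* and *Ccl9*, whose starts lie 14.5 kb apart on chromosome 11, had narrow intervals around no change. For *Ccl6* the LPS level was 0.892 of the unstimulated level in *Vim*+/+ neutrophils (0.730 to 1.09) and 0.853 in *Vim*-/- neutrophils (0.721 to 1.01). For *Ccl9* the same ratios were 0.961 (0.801 to 1.15) and 1.06 (0.908 to 1.23). With LPS for 1 hour, a log2 change of 1 in either direction lies outside these intervals.

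By size in *Vim*+/+ neutrophils the order of LPS responses was *Cxcl10*, *Cxcl3*, *Cxcl2*, *Ccl3*, *Ccl4*, *Ccl9* and *Ccl6*. The intervals of *Cxcl10*, *Cxcl3* and *Cxcl2* overlap one another, that of *Ccl3* lies below them and above that of *Ccl4*, and those of *Ccl4*, *Ccl9* and *Ccl6* overlap. In *Vim*-/- neutrophils the interval of *Cxcl2* lies above that of *Cxcl3*, those of *Cxcl3* and *Ccl3* overlap, and that of *Ccl4* lies above those of *Ccl9* and *Ccl6*.

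**Figure D1:**
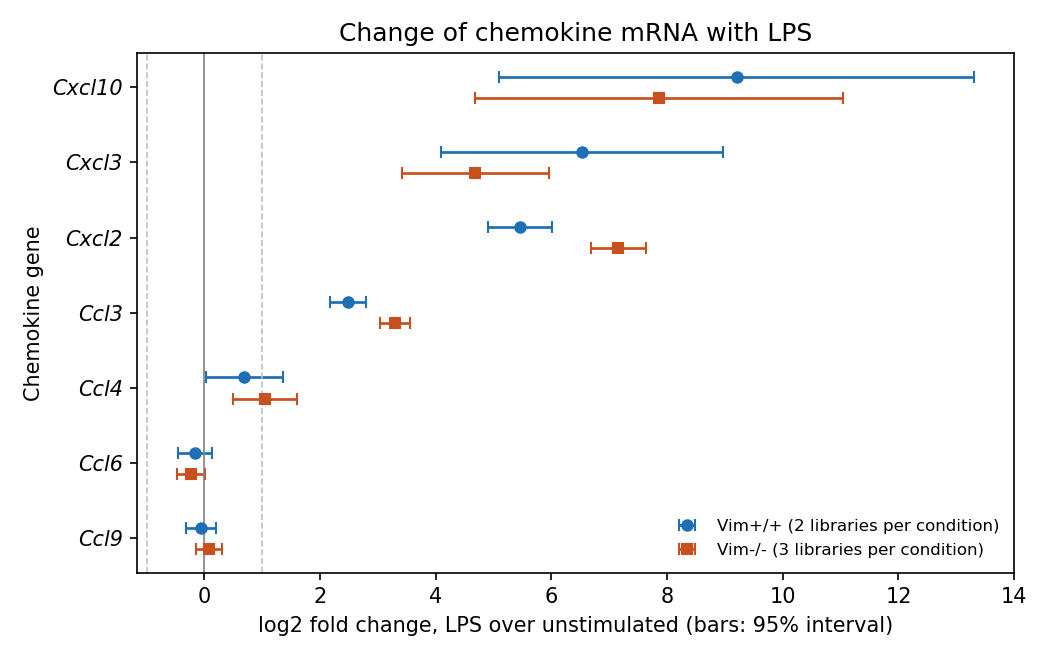
Log2 fold change of each chemokine gene, LPS over unstimulated, in *Vim*+/+ (circles) and *Vim*-/- (squares) neutrophils, with 95% intervals from the authors' standard errors and dashed lines at 1 and -1. *Cxcl2* and *Ccl3* sit further right in *Vim*-/- neutrophils with intervals apart, *Cxcl10* has the widest bars, and *Ccl6* and *Ccl9* lie at 0.

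Whether LPS acted differently by genotype was tested by a two-sided normal test on the gap between the LPS fold changes, with p-values adjusted after Benjamini and Hochberg over 13091 genes. Of the 7 chemokine genes, *Cxcl2* passed, where 0.0764% of all genes did. Its log2 response was larger in *Vim*-/- neutrophils by 1.69 (95% interval 0.96 to 2.42), which is 3.23-fold (1.95 to 5.35), with adjusted p = 0.0111 in this normal test across all genes. With the stricter Benjamini-Yekutieli adjustment it did not pass (adjusted p = 0.112 over all genes). *Cxcl2* was 2.55-fold lower in unstimulated *Vim*-/- than *Vim*+/+ neutrophils (1.77 to 3.69), and after LPS its level was 1.27 of that in *Vim*+/+ neutrophils (0.896 to 1.79), which did not pass (DESeq2 adjusted p = 0.476).

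*Ccl3* came next among the 7. Its log2 response was larger in *Vim*-/- neutrophils by 0.82 (0.41 to 1.22), which ranked 13th of all genes by p but missed the threshold in the normal test across all genes (adjusted p = 0.0729, and 0.0435 with the statistics divided by their robust spread over all genes). Here the unstimulated levels did not differ detectably: the *Vim*-/- level was 0.925 of the *Vim*+/+ level (0.758 to 1.13). After LPS it was 1.63 of it (1.34 to 1.99), which passed (DESeq2 adjusted p = 5.20e-05, but 0.0666 with the statistics rescaled). Relative to unstimulated *Vim*+/+ neutrophils, *Ccl3* reached 2.48 log2 units with LPS in *Vim*+/+ and 3.18 in *Vim*-/- neutrophils, and *Cxcl2* reached 5.46 and 5.80.

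For the other 5 genes the difference of responses did not pass, with intervals of very different width. The interval of the difference ran from -0.44 to 0.31 log2 units for *Ccl6* and from -0.20 to 0.48 for *Ccl9*. For *Cxcl3* it ran from -4.60 to 0.91, and for *Cxcl10* from -6.55 to 3.85, so differences larger than that of *Cxcl2* lie within the intervals.

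Between genotypes, *Ccl6* and *Ccl9* differed in both conditions. *Ccl9* was 2.38-fold lower in unstimulated *Vim*-/- than *Vim*+/+ neutrophils (2.01 to 2.81) and 2.16-fold lower after LPS (1.82 to 2.55), with DESeq2 adjusted p = 4.17e-21 and 1.40e-16. By Wald statistic it was the 5th lowest of 13091 genes unstimulated and the 7th lowest after LPS. *Ccl6* went the other way, at 1.79-fold (1.49 to 2.16) and 1.72-fold (1.43 to 2.07) the *Vim*+/+ level, with DESeq2 adjusted p = 4.42e-08 and 8.38e-07. With the statistics rescaled the values for *Ccl6* were 0.0721 and 0.0134, so the unstimulated one did not pass. Both are Ccr1 ligands with starts 14.5 kb apart, transcribed in the same direction.

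In unstimulated neutrophils 2 of the 7 genes were called, *Cxcl2* and *Ccl9*, both lower in *Vim*-/-, where 7.14% of the 12837 genes with an adjusted p were called and 1.67% were called as lower. After LPS 1 of the 7 was called, *Ccl9*, also lower, where 5.32% were called and 1.62% were called as lower. Without the fold threshold 3 of the 7 passed in each condition, *Cxcl2*, *Ccl6* and *Ccl9* unstimulated and *Ccl3*, *Ccl6* and *Ccl9* after LPS, against 18.8% and 11.0% of genes. The median log2 fold change of the 7 was 0.09 unstimulated and 0.71 after LPS, against 0.08 and 0.03 over all genes. The Wald statistics of all genes were wide, with a robust spread of 1.83 unstimulated and 1.498 after LPS, where 1 is expected without differences. Divided by that spread and centred, *Ccl9* still passed in both conditions (adjusted p = 8.71e-06 and 5.32e-07, recomputed from DESeq2 statistics), *Ccl6* passed after LPS (0.0134) and not unstimulated (0.0721), and *Cxcl2* unstimulated (0.163) and *Ccl3* after LPS (0.0666) did not pass. Genotype was compared over 2 and 3 replicates of clonal lines, and differences between lines and an effect of genotype cannot be told apart beyond what the standard errors carry.

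*Cxcl3* and *Cxcl10* had log2 values of 2.67 (SE 1.199) and 2.19 (SE 2.02) higher in unstimulated *Vim*-/- neutrophils, and 0.83 (SE 0.662) and 0.84 (SE 1.75) after LPS. None of these passed (DESeq2 adjusted p from 0.105 to 0.848). *Ccl4* had 0.09 (SE 0.316) and 0.44 (SE 0.313), which did not pass either.

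**Figure D2:**
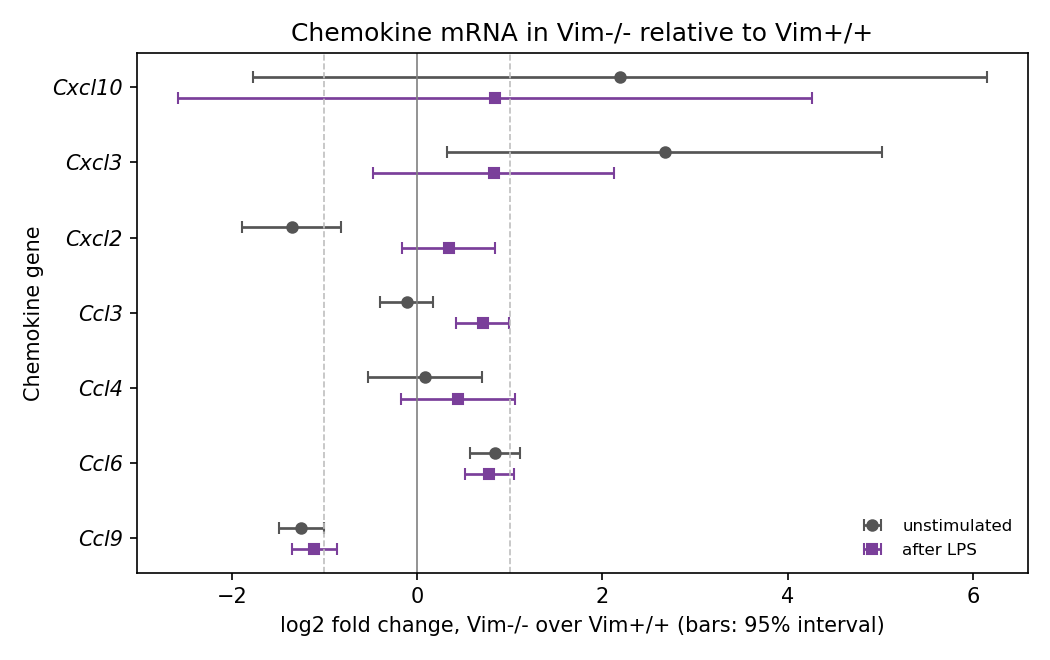
Log2 fold change of each chemokine gene in *Vim*-/- over *Vim*+/+ neutrophils, unstimulated (circles) and after LPS (squares), with 95% intervals from the authors' standard errors. *Ccl9* lies left and *Ccl6* right of 0 in both conditions, *Cxcl2* moves from -1.35 to 0.34, and *Ccl3* moves from -0.11 to 0.71.

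Levels and standard errors set the genes apart as well. Per kilobase of transcript, the mean normalised count over all libraries was highest for *Ccl6* at 82613, followed by *Ccl3* at 29390, *Cxcl2* at 12367 and *Ccl9* at 4577. *Ccl4* stood at 1113, *Cxcl10* at 1078 and *Cxcl3* at 236. The mean counts before division by length ran from 239 for *Cxcl3* to 118963 for *Ccl6*, and the median gene of the tables had 907. For genes that rise with LPS this mean is set largely by the stimulated libraries.

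The standard error of *Cxcl10* in *Vim*+/+ neutrophils was 8.23 times the median of genes with a like mean count, and 99.8% of those genes had a lower one. For *Cxcl3* the ratio was 2.62 and for *Cxcl2* 1.75. *Ccl3*, *Ccl4*, *Ccl6* and *Ccl9* lay between 0.833 and 1.14. The 3 CXC genes with the largest responses were thus also those measured least precisely for their mean count.

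**Figure D3:**
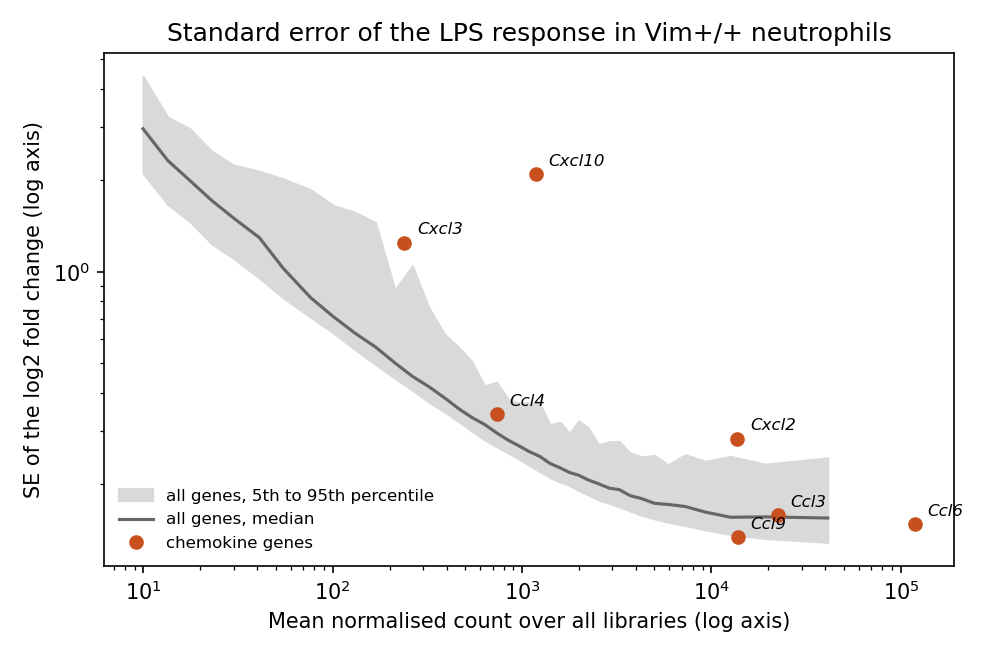
Standard error of the log2 fold change with LPS in *Vim*+/+ neutrophils against the mean normalised count over all libraries, both on log axes. The line and band are the median and the 5th to 95th percentile over all genes in bins of mean count, and the points are the chemokine genes. *Cxcl10*, *Cxcl3* and *Cxcl2* lie above the band, *Ccl3* and *Ccl4* lie within it, *Ccl9* lies near its lower edge, and *Ccl6* lies to the right of the last bin's median, where the band ends.

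Short AU-rich repeats in the 3′ untranslated region are known to mark many cytokine mRNAs for rapid decay. The pentamer ATTTA occurred 11 times in the 734 bases of the *Cxcl2* region (GENCODE M21). Of 1419 genes with a region of like length, *Cxcl2* among them, 0.0705% had at least as many, a share that is *Cxcl2* alone. A stretch of *Cxcl2* with overlapping copies in capitals, 132 to 160 bases after the stop codon, shows how they are packed, beside a stretch of *Cxcl3* with the nonamer TTATTTATT in capitals.
Cxcl2 site: atctatgtATTTATTTATTTAttaattcc
Cxcl3 site: ttatcagttgTTATTTATTgaaatggtct

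*Cxcl3* had 5 copies of ATTTA in 645 bases (2.98% of like genes had at least as many) and *Ccl3* had 5 in 409 bases (1.10%). Each such share counts the gene itself. *Cxcl10* had 2 (35.0%), *Ccl4* had 2 (13.1%), *Ccl6* had 4 (13.0%) and *Ccl9* had 5 in its much longer 2465 bases (41.7%). Over 11075 genes 66.3% held ATTTA at least once, and 7.42% held TTATTTATT, which *Cxcl2* held 4 times. The search was chosen after the values were seen, and the decay of these mRNAs was not measured.

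Of 31 other chemokine ligands, 10 were in the tables and the others were not analysed here, among them *Cxcl1* and *Cxcl5*. In each genotype 1 of the 10 passed with LPS, where 1.80% and 1.51% of all genes passed as higher. It was *Ccl5*, also known as RANTES, with DESeq2 adjusted p = 0.0174 in *Vim*+/+ and 0.0123 in *Vim*-/- neutrophils. Its mean normalised count was 26.5 and its unstimulated genotype difference is listed at 0, so no fold is given for it. The median log2 fold change of the 10 was -0.36 and -0.23 with LPS. None of the 10 passed between genotypes in either condition (DESeq2, with 1 and 0 of them at an unadjusted p under 0.05), where 18.8% and 11.0% of all genes passed. The mean normalised counts of the 10 ran from 14.3 to 342, below the 907 of the median gene, so not passing says little about them. The monocyte attractant *Ccl2* had 1.36 (DESeq2 adjusted p = 0.193) and 0.998 (0.429) with LPS, and is named here after its values were seen.

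Of 24 chemokine receptor genes 13 were in the tables, and *Ccrl2*, an atypical receptor that binds chemerin, was the one called with LPS in each genotype, where 1.08% and 0.917% of all genes were called as higher. It rose by a log2 fold change of 2.72 (SE 0.211) in *Vim*+/+ and 3.21 (SE 0.178) in *Vim*-/- neutrophils. *Cxcr2*, the receptor of Cxcl2 and Cxcl3, had -0.29 (SE 0.170) and -0.42 (SE 0.143), which did not pass (DESeq2 adjusted p = 0.537 and 0.123). Between genotypes 2 of the 13 passed unstimulated and 1 after LPS, where 18.8% and 11.0% of all genes did. *Cxcr2* was higher in unstimulated *Vim*-/- neutrophils by 0.54 (SE 0.158, DESeq2 adjusted p = 0.00565), and after LPS the value was 0.42 (adjusted p = 0.0644). *Cxcr1*, with a mean normalised count of 36.3, was higher in *Vim*-/- neutrophils by 7.58 (SE 1.95) and 4.45 (SE 1.58), with DESeq2 adjusted p = 0.00144 and 0.0451. *Ccr1*, *Ccr3* and *Cxcr3* passed in none of the 4 comparisons, with mean normalised counts of 20184, 65.6 and 12.2. The receptor of Cxcl10 was therefore close to the lower limit of the tables, and that of Ccl6 and Ccl9 was well counted.

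Part of the pathway upstream of the chemokines rose with LPS. Of 25 genes for LPS sensing and signalling, all in the tables, 5 passed as higher and none as lower in each genotype, where 1.80% of all genes passed as higher in *Vim*+/+ and 1.51% in *Vim*-/- neutrophils. The list's medians were 0.25 and 0.09. The called ones with the largest Wald statistics in both genotypes were *Relb*, an NF-κB subunit, at 1.73 (SE 0.194) and 2.13 (SE 0.163), and *Cd14*, the co-receptor that hands LPS to TLR4, at 1.15 (SE 0.145) and 1.23 (SE 0.122). *Tlr4* was higher in *Vim*-/- neutrophils by 0.77 (SE 0.170) unstimulated and 0.52 (SE 0.170) after LPS. Between genotypes 2 of the 25 passed as higher and 2 as lower unstimulated, where 12.6% and 6.15% of all genes did, and 1 as higher after LPS, where 6.68% did, so these counts are near the background. Of 24 interferon response genes 18 were in the tables. *Oasl1*, an interferon-induced inhibitor of translation of *Irf7*, was the 1 that passed with LPS in *Vim*+/+ neutrophils, at 3.22 (SE 0.960), and *Stat2* was the 1 that passed as lower in *Vim*-/- neutrophils, at -0.60 (SE 0.181), where 0.698% of all genes passed as lower. The median of the interferon genes with LPS was 0.00 in *Vim*+/+ and -0.25 in *Vim*-/- neutrophils. Whether interferon had a part in the rise of *Cxcl10* at 1 hour was not tested. Between genotypes 2 of the 18 passed, both as higher, in each condition, where 12.6% of all genes passed as higher unstimulated and 6.68% after LPS, so these counts are near the background.

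Markers of the other cells that such cultures could hold did not pass with LPS in either genotype, in any of the lists examined (DESeq2, with 0 to 2 genes of each such list at an unadjusted p under 0.05, and up to 3 of the neutrophil list), but several passed between genotypes. Over all genes 12.6% passed as higher in *Vim*-/- neutrophils and 6.15% as lower when unstimulated, and 6.68% and 4.35% after LPS. Of 8 progenitor markers 3 were lower in unstimulated *Vim*-/- neutrophils and 4 after LPS, among them *Ctsg* at -2.55 (SE 0.289) and -2.06 (SE 0.288). Of 15 neutrophil markers 7 were higher and 1 lower unstimulated, and 3 higher and 1 lower after LPS. Of 9 eosinophil markers 3 were higher and 1 lower unstimulated, and 4 higher and 1 lower after LPS. *Ear6* stood at 1.59 (SE 0.241) and 1.95 (SE 0.241), and *Siglecf* was lower, at -0.79 (SE 0.190) and -0.65 (SE 0.189). The summed mean normalised count of the 9 was 465629, against 4774740 for the neutrophil list. Most of it came from *Prg2* (268319) and *Epx* (142776), which did not pass between genotypes in either condition. Of 8 monocyte and macrophage markers 2 were lower unstimulated, and 2 lower and 1 higher after LPS, and *Csf1r* stood at -0.93 (SE 0.219) and -1.19 (SE 0.218). The 1 that was higher after LPS was *Mrc1*, at 4.15 (SE 1.46). *C1qa*, *C1qb* and *C1qc* of that list had no row in the tables used here, nor had the dendritic cell genes *H2-Aa* and *H2-Ab1* or the lymphocyte genes *Cd3e* and *Ms4a1*. Of 9 mast cell and basophil markers 2 were higher and 3 lower unstimulated, and 2 lower after LPS. Of 3 dendritic cell markers 1 was lower unstimulated and none passed after LPS, and of 3 lymphocyte markers 2 and 3 were lower. The markers named here, *Tlr4* and *Stat2* were named after their values were seen. *Ccl6* and *Ccl9* also passed between genotypes in both conditions, as did *Ctsg*, *Ear6*, *Siglecf* and *Csf1r*. With the DESeq2 statistics rescaled, *Ccl6* did not pass unstimulated (adjusted p = 0.0721). The part of such markers in the genotype differences of the chemokine genes was not tested. In libraries from whole cultures, fewer cells of a kind and less RNA per cell cannot be told apart.

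Most members sit among relatives on the chromosomes. Within 100 kb of the 7 starts, 13 other genes were in the tables. With LPS 1 of the 13 was called in each genotype, *Ccl5*, as higher, where 1.08% and 0.917% of all genes were. Between genotypes 2 were called unstimulated, where 7.14% of all genes were, *E230016K23Rik* at 2.24 (SE 0.862) and *Naaa*, an amidase gene 70.7 kb from *Cxcl10*, at 2.06 (SE 0.245), and after LPS, where 5.32% of all genes were called, *Naaa* at 1.93 (SE 0.247). The start of *E230016K23Rik* lies between those of *Ccl9* and *Ccl6*, which went opposite ways, and its mean normalised count was 52.1.

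**Figure D4:**
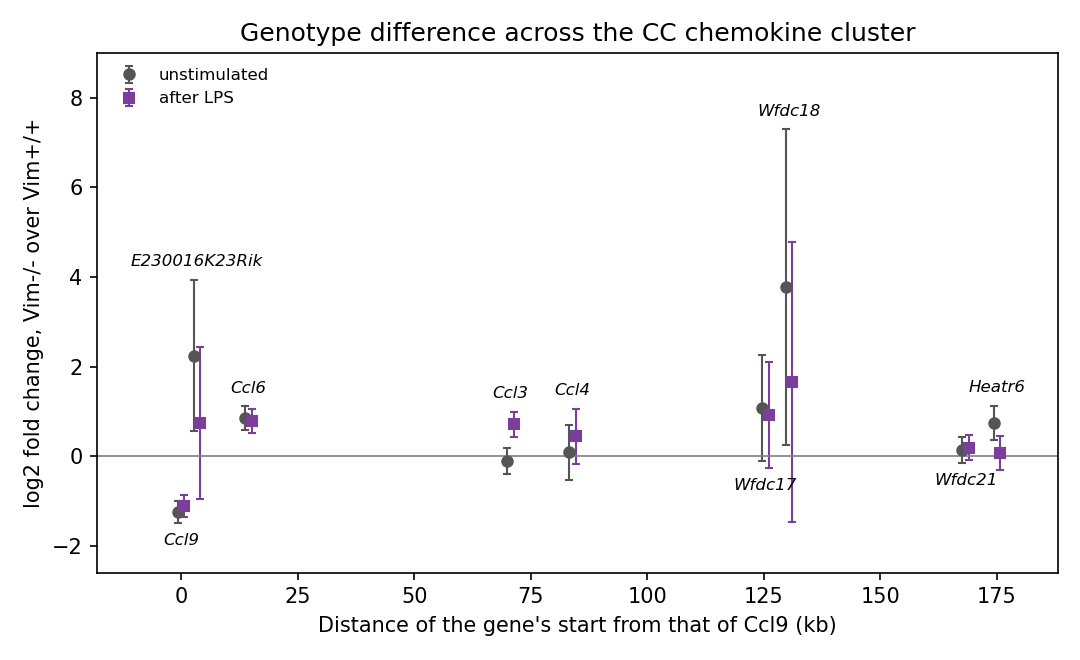
Log2 fold change in *Vim*-/- over *Vim*+/+ neutrophils, unstimulated (circles) and after LPS (squares), with 95% intervals, for genes of the chromosome 11 cluster against the distance of their start from that of *Ccl9* in kb. *Ccl9* lies below 0 and *Ccl6*, 14.5 kb away, above 0 in both conditions, and *Ccl3* leaves 0 after LPS; *Ccl5* is not drawn, since its unstimulated value is listed at 0.

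The genes with the nearest pattern were found by Euclidean distance over 3 log2 fold changes, LPS in each genotype and genotype unstimulated, among genes with a mean normalised count of at least 100. For *Cxcl2* they were *Il1a* (distance 0.988 log2 units), *Tnf* (1.61) and *Nfkbiz* (1.76). *Il1a* combined a lower unstimulated level in *Vim*-/- neutrophils (-1.90) with responses of 4.64 and 7.17. For *Ccl3* they were *Ccrl2* (0.258), *Map3k8* (0.553) and *Pde4b* (0.576), and for *Ccl4* *Fosl2* (0.210), *Aoc2* (0.210) and *D17H6S56E-5* (0.278). For *Ccl6* they were *Fbxo10*, *Mettl13* and *Tbc1d2*, and for *Ccl9* *Gm39008*, *Dclre1a* and *H2-K1*, all within 0.0825 log2 units. *Cxcl3* and *Cxcl10* had no close neighbour: their nearest genes, *Nfkbiz*, *Tnf* and *Gm33804*, and *Cxcl3*, *Il23a* and *Cxcl2*, lay 3.57 to 5.20 log2 units away.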

How the data were processed

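RNA was sequenced from 10 libraries of HoxB8-derived mouse neutrophils, polyA-selected, and groups were taken from the sample labels. Per the submitters' processing notes and the study's methods, the authors trimmed reads with Cutadapt 4.4, aligned and counted them on mm10 with STAR 2.7.10b, estimated 4 covariates with RUVSeq, and fitted DESeq2 1.26.0. Annotation and strand setting are not given in the sources used here. The deposited signal is baseMean, the mean normalised count over libraries. The log2 fold changes and standard errors are the authors' values, the Wald score is their ratio, and the raw and adjusted p-values were likewise deposited by the authors. Nothing in these tables is per library, so depth is unknown, and the sources used here do not say whether replicates were separate clones or cultures, so p-values measure the spread between these samples, which may be in part technical.

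The tables hold the authors' own comparisons, and those values are what is reported. Further columns that restate adjusted p as a category or on a -log10 scale were not used. Genotype fold changes were turned by sign to *Vim*-/- over *Vim*+/+. Of 13091 genes, 254 lacked an adjusted p in both genotype comparisons, as did 762 for LPS in *Vim*-/- neutrophils, and none of these could be called. Fold changes are unshrunken, and intervals are normal 95% intervals from the deposited standard errors. The difference of LPS responses used a two-sided normal test with Benjamini-Hochberg adjustment over all genes. Its standard error assumes that the LPS comparisons are independent. The test was also run on simulated data, but these were drawn with the same independence and cannot check that assumption. Python 3.11.15 was used with numpy 2.4.6, scipy 1.17.1, pandas 2.3.3 and matplotlib 3.10.9. Like genes for standard errors had a similar baseMean. Positions and promoters were taken from RefSeq on GRCm38.p6 and transcripts from GENCODE M21. Promoters matched 6 of the 7 genes. Level per length divides baseMean by the length of the principal transcript.

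The members, gene lists and tests were chosen with earlier results of these data known. Named genes were all 7 members, other chemokine ligands that passed, receptors the members bind and others called (some items of these lists are not reported here), the 2 called genes of each further list with the largest Wald statistic per LPS comparison, the 3 nearest patterns per member, called neighbours within 100 kb, and *Vim*. *Ccl2*, *Tlr4*, *Stat2* and the markers of other cells fall outside this rule and were named after their values were seen. Alternatives were no fold threshold, a baseMean of at least 100, centred and rescaled statistics, Benjamini-Yekutieli adjustment, centred fold changes, and the standard error from the genotype tables.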

Additional observations from a re-analysis of the deposited data

Results flagged for a closer look

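The LPS response of *Cxcl2* differed between the genotypes by a test of the difference itself. Its log2 response was larger in *Vim*-/- than in *Vim*+/+ neutrophils by 1.69 (SE 0.371), with adjusted p = 0.0111 in the normal test across all 13091 genes, from 7.15 in *Vim*-/- and 5.46 in *Vim*+/+ neutrophils. With Benjamini-Yekutieli adjustment the test did not pass (adjusted p = 0.112 over all genes). The *Vim*-/- level was lower unstimulated, by a log2 fold change of -1.35 (DESeq2 adjusted p = 1.87e-05, and 0.163 with the statistics rescaled), and after LPS the value was 0.34, which did not pass (DESeq2 adjusted p = 0.476). Values per library were not at hand, so it cannot be said how many replicates show this direction.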

How the results depend on the processing

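Of 140 values of the 7 genes under alternatives, 134 kept their direction and side of the threshold and none changed sign. With Wald statistics centred and divided by their robust spread (1.83 for the unstimulated genotype comparison), the members called there fell from 2 to 1, as *Cxcl2* was lost (adjusted p = 0.163) and *Ccl9* kept (8.71e-06), and *Ccl6* no longer passed (0.0721). The same rescaling took *Ccl3* after LPS out of the passing genes (0.0666) and brought it into the difference of responses (0.0435), where the members passing rose from 1 to 2. Its adjusted p there ran from 0.0435 to 0.733 over the alternatives. Without the fold threshold the members passing between genotypes after LPS rose from 1 to 3. With Benjamini-Yekutieli adjustment those passing in the difference of responses fell from 1 to 0, with adjusted p = 0.112 for *Cxcl2*, whose range was 0.00492 to 0.112, and *Ccl4* no longer passed with LPS in *Vim*-/- neutrophils (0.147). Apart from the construction of each alternative, the cause was not tested.

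Over all genes, dropping the fold threshold moved the calls from 172 to 284 and from 143 to 272 with LPS in *Vim*+/+ and *Vim*-/- neutrophils, and from 917 to 2410 and from 683 to 1416 between genotypes unstimulated and after LPS. Rescaling gave 160 and 233 between genotypes, Benjamini-Yekutieli gave 567 and 420 there and 113 with LPS in *Vim*+/+ neutrophils, and the difference of responses fell from 10 genes to 4 under Benjamini-Yekutieli and under a baseMean of at least 100. No paired analysis was possible because the tables used here hold no value per library, and for the same reason no library could be left out in turn.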
